A study of Mus musculus with 6 samples.

Results

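The genes described here are 32 genes of cholesterol and fatty acid metabolism in muscle stem cells (MuSCs), which sit along the fibres of skeletal muscle and regenerate it. They were picked by symbol, for their role, and all 32 were found among the 22081 genes of the normalized count table. They comprise 7 enzymes of the mevalonate pathway, 11 enzymes that make squalene and turn it into cholesterol, 5 genes of the SREBP transcription factors and the proteins that hold them back, 4 genes of liver X receptor (LXR) signalling and cholesterol efflux, and 5 genes of fatty acid synthesis. The list does not hold every gene of these pathways. Of the 32 genes, 31 reached a mean normalized count of at least 5 and were tested.

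RNA-seq was done on MuSCs sorted fresh from C57BL/6 mice, with 3 control and 3 Taf4asKO libraries. Taf4, formerly Taf4a, encodes a subunit of TFIID, the general factor that recruits RNA polymerase II to promoters. Taf4asKO mice carried floxed Taf4a alleles and a tamoxifen-inducible Cre under Pax7, which removes exons 11 and 12 in cells that express Pax7. Per the study, mice were 8 to 20 weeks old and of both sexes, and tamoxifen was given at 0.05 mg per g body weight per injection. Its legends mostly give isolation 4 to 6 weeks after tamoxifen, without naming these libraries. Its list of genotypes names tamoxifen treatment for Taf4asKO only, so whether control mice received it is not known. Any part of tamoxifen itself in the differences below was not tested. Controls were littermates with floxed Taf4a that lacked the Cre or carried it. The labels give the control genotype only as control, and the titles as WT, so which of these genotypes a control library had is not known. No label says which animals a library came from, so p-values measure the spread between these libraries.

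Cells make cholesterol from acetyl-CoA through mevalonate, farnesyl diphosphate, squalene and lanosterol. SREBP precursors sit in the endoplasmic reticulum bound to SCAP, and INSIG proteins keep this complex there while sterols are plentiful. When sterols fall, the complex moves to the Golgi, and the released SREBP fragment activates genes of sterol and fatty acid synthesis together with NF-Y and SP1. Oxysterols activate LXR, which raises transcription of cholesterol exporters.

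Normalized counts summed to between 12338676 and 14551732 per library. Log values correlated at r = 0.9611 to 0.9843 within groups and at 0.9454 to 0.9662 between groups, across genes. Taf4 had 613, 534 and 478 in control and 631, 565 and 574 in Taf4asKO, here and below in normalized counts and in the order of the replicate numbers 1 to 3 (log2 fold change 0.13, SE 0.12, adjusted p = 0.524). This value sums the deleted exons with the rest of the gene, so it does not check the labels. Pax7, which defines MuSCs, had 12082, 12244 and 13007 in control and 10669, 10363 and 11164 in Taf4asKO, all below the controls but short of the threshold (log2 fold change -0.21, adjusted p = 0.161). Of the 8 MuSC markers, Cd34 (-1.97), Myf5 (-0.85) and Itga7 (-0.43) fell and Vcam1 (0.74) and Sdc4 (0.88) rose, on the same log2 scale, where 6.71% of all genes were called lower and 5.93% higher. Itga7 was called in 1 of the 6 fits that leave out 1 library, the one without control replicate 3, and the other 4 in all 6. Markers of Schwann cells were higher in Taf4asKO for 6 of 8 genes, with summed counts of 3327 to 5940 in control and 7395 to 8722 in Taf4asKO, and none of the 8 was at 0 in any library. Blocking on the replicate number, as described below, called all 8 higher, and leaving out 1 library called 4, 8 and 3 without control replicates 1, 2 and 3 and 2, 1 and 1 without Taf4asKO replicates 1, 2 and 3. Of the fibro-adipogenic progenitor markers, 2 of 8 (Col3a1 and Dpt) were lower and 0 higher, but the other 6 had log2 fold changes above 0, 2 of them at an unadjusted p under 0.05, the median of the 8 was 0.83, and the replicate block called 5 higher, against 9.09% of all genes. Without control replicate 3, 2 of the 8 (Dcn and Col1a2) were called higher. Their sums, in which Col3a1 was a large share, were 58290 to 98904 in control and 43738 to 76453 in Taf4asKO. Endothelial markers summed to 189 to 470 in control and 479 to 805 in Taf4asKO, with 0 of 6 past the threshold, 3 of them higher at an unadjusted p under 0.05 in limma, which 14.6% of all genes reached as higher and 14.2% as lower. With the block, 2 of the 6 (Cdh5 and Kdr) were called higher, and without control replicate 3, 1 (Cdh5). The adipocyte markers Cfd and Cidec had at most 8 and at most 6 counts, and the sum of the 4 adipocyte markers analysed was 64 to 166 in control and 141 to 325 in Taf4asKO. Most of that sum was Fabp4, at 45, 136 and 150 in control and 126, 195 and 306 in Taf4asKO (2.003-fold, adjusted p = 0.165, and 0.00440 with the block); its log2 fold change was 0.45 without control replicate 1. The 4 leukocyte markers analysed summed to 434 to 547 in control and 667 to 926 in Taf4asKO. Lyz2, the highest of them in Taf4asKO, had 94, 357 and 320 in control and 465, 729 and 483 in Taf4asKO (2.47-fold, adjusted p = 0.0699, and 0.00396 with the block, with a log2 fold change of 0.69 without control replicate 1 and a call as higher without control replicate 2), and Cd74 was lower at no more than 12 counts in any library, a call held in 2 of the 4 leave-out fits in which it reached the mean of 5 (without control replicate 2 or Taf4asKO replicate 2). Markers of muscle fibres summed to 1193 to 3772 in control and 2141 to 2712 in Taf4asKO, with 0 of 6 past the threshold and 0 at an unadjusted p under 0.05 in limma, while 2 (Acta1 and Tnnt3) were called higher without control replicate 2. The part of any of these cells in the values below was not tested. In these bulk samples, fewer cells of a type and less RNA per cell cannot be told apart.

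Calls required a limma p under 0.05 after Benjamini-Hochberg adjustment, together with a 1.3-fold or larger difference; genes that meet both are said to pass the threshold. The sterol and fatty acid genes split into a few that fell, 1 that rose and a majority within the replicate spread. In Taf4asKO, 4 of the 31 tested genes fell (12.9%), against 6.71% of all 18562 genes tested. These were Mvd, Fdft1, Scap and Fasn. Insig2 rose, 1 of 31 (3.23%) against 5.93% of all genes. The other 26 did not pass. The median log2 fold change of the 31 genes was -0.17, with 20 below 0 and 11 above, while the median over all genes tested was 0.004. All 3 Taf4asKO libraries lay below all 3 controls for 8 genes (25.8%, against 16.4% of all genes) and above them for 3 (9.68%, against 16.6%).

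**Figure D1:**
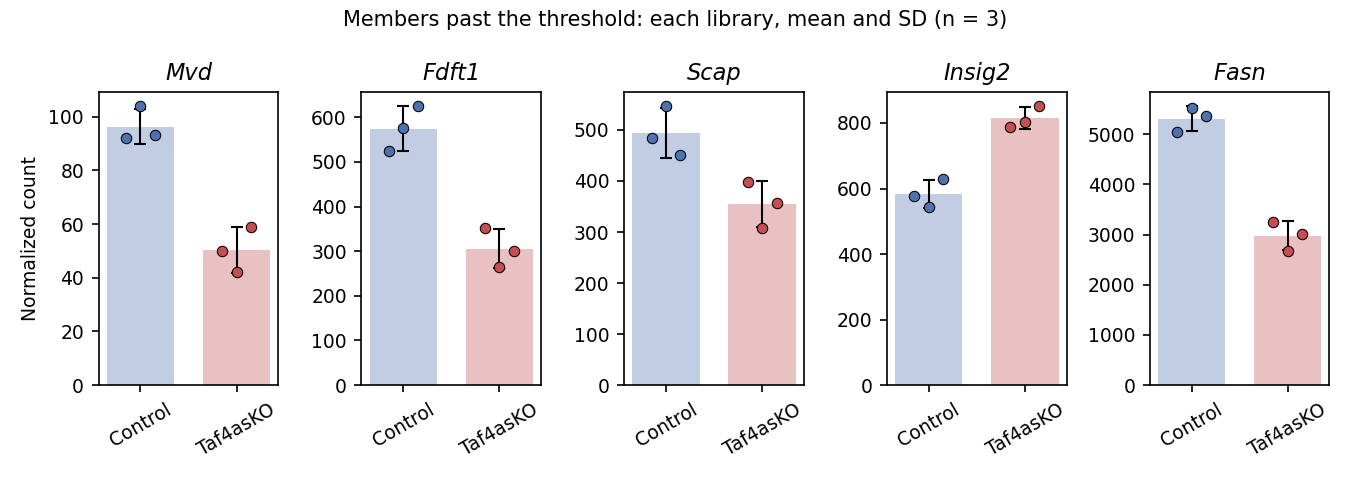
Normalized count (y axis, from 0, a separate scale per gene) of the 5 genes past the threshold in control (blue) and Taf4asKO (red) libraries. Bars give the mean, error bars the SD (n = 3) and points each library, and in none of the 5 genes do the groups overlap.

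The replicate numbers were taken to pair the libraries, since libraries with the same number deviated from their group means together. These correlations were weak, at 0.126 to 0.235 across genes. No label states a pairing, which was inferred from these same values. With the replicate number as a block, limma called 7 of the 31 genes lower (22.6%, against 8.98% of all genes) and 3 higher (9.68%, against 9.09%). The block added Lss, Cyp51 and Msmo1, enzymes of the steps around lanosterol, to the genes that were lower. It added Sc5d, a late enzyme of the same pathway, and Nr1h3, which encodes LXR alpha, to those that were higher.

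**Figure D2:**
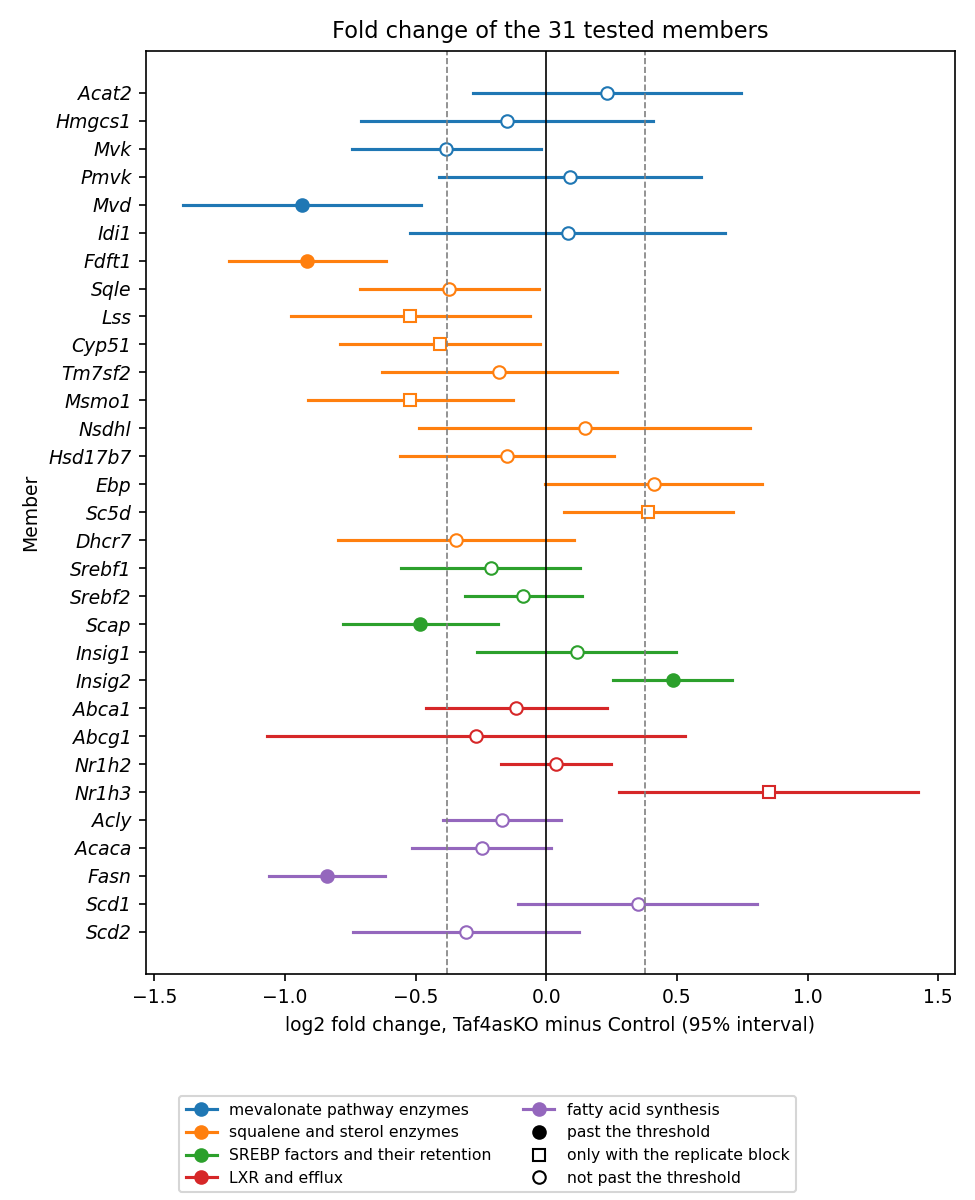
Log2 fold change of each tested gene, Taf4asKO minus Control (x axis), with its 95% interval, for the 31 genes ordered by role (y axis); dashed lines mark a fold of 1.3. Filled circles are the 5 genes past the threshold, open squares the 5 that pass with the replicate block alone, and the genes on the left include 4 of the steps from squalene synthesis to lanosterol demethylation.

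Since SREBPs act on promoters with NF-Y and SP1, the 250 bases upstream of each RefSeq start (GRCm38.p6) were searched on both strands for CCAAT, the core of the NF-Y motif, GGGCGG, an SP1 motif, TCACNCCAC, a sterol regulatory element form, and CACGTG, an E-box. RefSeq windows matched 26 of the 32 genes with 35 starts. The windows of Mvd and Fasn, 2 genes that fell, and of Hmgcs1, which did not pass but held the element form, are shown 5′ to 3′ on the strand of the gene, with matches in capitals.
Mvd, chr8:122443423-122443672, minus strand: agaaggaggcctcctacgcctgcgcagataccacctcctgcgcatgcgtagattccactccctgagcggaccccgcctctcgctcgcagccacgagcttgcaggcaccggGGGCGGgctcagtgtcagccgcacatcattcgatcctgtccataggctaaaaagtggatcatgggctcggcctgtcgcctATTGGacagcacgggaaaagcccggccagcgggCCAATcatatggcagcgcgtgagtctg
Fasn, chr11:120824548-120824797, minus strand: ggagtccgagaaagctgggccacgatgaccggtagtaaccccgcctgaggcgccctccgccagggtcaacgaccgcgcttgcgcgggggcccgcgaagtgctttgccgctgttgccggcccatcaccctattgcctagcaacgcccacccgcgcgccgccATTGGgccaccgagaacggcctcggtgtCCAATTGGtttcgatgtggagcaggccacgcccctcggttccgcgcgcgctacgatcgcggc
Hmgcs1, chr13:119690101-119690350, plus strand: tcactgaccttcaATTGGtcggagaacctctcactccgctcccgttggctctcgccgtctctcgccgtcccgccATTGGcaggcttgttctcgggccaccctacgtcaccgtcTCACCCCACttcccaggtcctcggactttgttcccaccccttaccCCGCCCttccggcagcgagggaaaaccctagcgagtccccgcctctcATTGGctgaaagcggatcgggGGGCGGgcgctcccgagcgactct
The Mvd window held CCAAT 2 times and GGGCGG 1 time, and the Fasn window held CCAAT 3 times, in 2 cases on opposite strands with overlapping letters. CCAAT was in 57.1% of the 35 windows, against 33.8% of all 32851 windows of the same length. GGGCGG was in 68.6%, against 32.7%. Among synthesis enzymes, 14 of 15 matched genes held CCAAT and 14 of 15 held GGGCGG in at least 1 window. The shares were 37.5% and 35.4% of all 27025 genes with a window, a set not limited to the genes tested here. Fdft1, which fell, was not among the matched genes. TCACNCCAC was found in 1 of the 35 windows (2.86%, against 1.05% of all windows) and CACGTG in 6 (17.1%, against 6.02%). A match is a run of letters and not a site shown to be bound. Scap, with 2 windows, and Insig2, with 3, are not printed because the sources used here do not say which start was used. No window of Scap, which fell, held CCAAT, and a window of Insig2, which rose, held it 3 times. Of genes that did not pass, Mvk held CCAAT 5 times and Hsd17b7 and Msmo1 3 times each, while Acly, Acaca and Nr1h2 held none. Whether the motifs go with the direction of change was not tested.

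Most enzymes of sterol synthesis did not pass. Of the 17 tested enzymes, 2 fell (11.8%, against 6.71% of all genes) and 0 rose, and at an unadjusted p under 0.05 in limma 7 were lower, against 14.2% of all genes, and 1 was higher, against 14.6%. With the replicate block, 5 were lower (29.4%, against 8.98% of all genes) and 1 was higher (5.88%, against 9.09%). Their median log2 fold change was -0.18, with 11 below 0 and 6 above. The 6 tested mevalonate enzymes included 1 that fell, and the 11 squalene and sterol enzymes included 1 that fell, with a median of -0.35 in the second group.

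In the mevalonate pathway, Mvd, the decarboxylase that makes isopentenyl diphosphate, had 92, 104 and 93 in control and 50, 42 and 59 in Taf4asKO. Every Taf4asKO library was below every control. Mvd fell by 47.7% (log2 fold change -0.93, SE 0.21, adjusted p = 0.0163). It did not pass without Taf4asKO replicate 1 or without Taf4asKO replicate 2 (log2 fold change -1.05 to -0.81 over the 6 fits that leave out 1 library), and its adjusted p reached 0.0811 at most over all alternatives.

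Mvk, the mevalonate kinase 2 steps before Mvd, had 138, 159 and 175 in control and 116, 111 and 134 in Taf4asKO. The groups did not overlap, but the difference missed the threshold (log2 fold change -0.38, SE 0.16, adjusted p = 0.154). Hmgcs1, which makes the HMG-CoA that is reduced to mevalonate, was even in control, at 1147, 1081 and 1166, and uneven in Taf4asKO, at 1665, 697 and 912. Taf4asKO replicate 1 was above and the other 2 Taf4asKO libraries were below every control. The log2 fold change was -0.15 (SE 0.25, adjusted p = 0.740), and it was 0.12 without Taf4asKO replicate 2. Of the exon bases of Hmgcs1, 12.1% overlap Gm48342 on the opposite strand.

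Idi1, the isomerase that follows Mvd, had 175, 139 and 174 in control and 245, 106 and 193 in Taf4asKO, with the same library highest and the same library lowest as for Hmgcs1 (log2 fold change 0.08, SE 0.27, adjusted p = 0.878). The groups overlapped. Pmvk, the phosphomevalonate kinase, had 104, 92 and 164 in control and 112, 140 and 121 in Taf4asKO (log2 fold change 0.09, adjusted p = 0.834). Acat2, an acetyl-CoA acetyltransferase of the cytosol, had 54, 46 and 75 in control and 65, 70 and 67 in Taf4asKO (log2 fold change 0.23, adjusted p = 0.551). In both genes, the highest library was control replicate 3 and the Taf4asKO libraries lay inside the control range. Fdps, farnesyl diphosphate synthase, was listed at 10, 3 and 9 in control and at 3, 1 and 1 in Taf4asKO, below the mean of 5 needed for a test. In Fdps, 26.7% of the exon bases are shared with Gm43738 on the same strand, and reads over more than 1 gene were not counted, so the level given here is uncertain.

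Fdft1, squalene synthase, the first enzyme committed to sterols, had 524, 575 and 625 in control and 352, 264 and 301 in Taf4asKO. The highest Taf4asKO library was well below the lowest control. Fdft1 fell by 47.0% (log2 fold change -0.91, SE 0.14, adjusted p = 0.00258), and it passed in all 6 fits that leave out 1 library. Ctsb, a lysosomal protease gene, overlaps 18.3% of its exon bases on the opposite strand, and the sources used here do not say if reads were counted by strand.

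Downstream of squalene synthase, the next enzymes had lower means in Taf4asKO but more spread. Sqle, squalene epoxidase, had 643, 588 and 735 in control and 592, 403 and 537 in Taf4asKO (log2 fold change -0.37, SE 0.15, adjusted p = 0.143). The groups overlapped by 1 library. Lss, lanosterol synthase, had 302, 310 and 529 in control and 233, 254 and 283 in Taf4asKO. The groups did not overlap, though control replicate 3 stood far above the other controls (log2 fold change -0.52, SE 0.21, adjusted p = 0.127, and 0.0264 with the replicate block). Without control replicate 3, the log2 fold change of Lss was -0.26, under the fold limit.

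Cyp51, the lanosterol demethylase, had 923, 819 and 974 in control and 908, 540 and 645 in Taf4asKO. Taf4asKO replicate 1 lay inside the control range and the other 2 below it (log2 fold change -0.41, SE 0.17, adjusted p = 0.152, 0.0430 with the block and 0.0335 without Taf4asKO replicate 1). Msmo1, the sterol methyl oxidase that acts later, had 641, 693 and 709 in control and 590, 347 and 521 in Taf4asKO. All Taf4asKO libraries were below all controls, replicate 2 by the most (log2 fold change -0.52, SE 0.18, adjusted p = 0.0820, and 0.0317 with the block). For Sqle the adjusted p with the block was 0.0431, but the fold was under 1.3. Without Taf4asKO replicate 2, the log2 fold changes of Sqle, Cyp51 and Msmo1 were -0.21, -0.24 and -0.29, each under the fold limit.

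The enzymes of the last steps did not share 1 direction. Tm7sf2, a sterol reductase, had 59, 61 and 71 in control and 52, 58 and 58 in Taf4asKO, so that the groups touched without overlapping (log2 fold change -0.18, adjusted p = 0.607). Dhcr7, which makes cholesterol in the last step of 1 branch, had 138, 232 and 224 in control and 152, 143 and 160 in Taf4asKO, with control replicate 1 the lowest of all (log2 fold change -0.35, adjusted p = 0.292, and -0.59 with adjusted p = 0.0442 without that library). Hsd17b7, a sterol ketoreductase, had 304, 405 and 401 in control and 431, 276 and 304 in Taf4asKO (log2 fold change -0.15, adjusted p = 0.640). Taf4asKO replicate 1 was the highest and replicate 2 the lowest library for Hsd17b7.

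Sc5d, the desaturase before the last step, was on the other side, with 324, 437 and 429 in control and 476, 494 and 583 in Taf4asKO. No Taf4asKO library was as low as a control (log2 fold change 0.39, SE 0.15, adjusted p = 0.107, and 0.0372 with the block, and a log2 fold change of 0.25 without control replicate 1). Ebp, the sterol isomerase that supplies Sc5d, had 122, 158 and 104 in control and 169, 150 and 187 in Taf4asKO, overlapping by 1 library (log2 fold change 0.41, SE 0.19, adjusted p = 0.177, and 0.0403 without control replicate 2). Nsdhl, a sterol dehydrogenase, had 84, 130 and 156 in control and 106, 111 and 197 in Taf4asKO (log2 fold change 0.15, adjusted p = 0.780). Its spread within each group was wider than the difference between them.

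**Figure D3:**
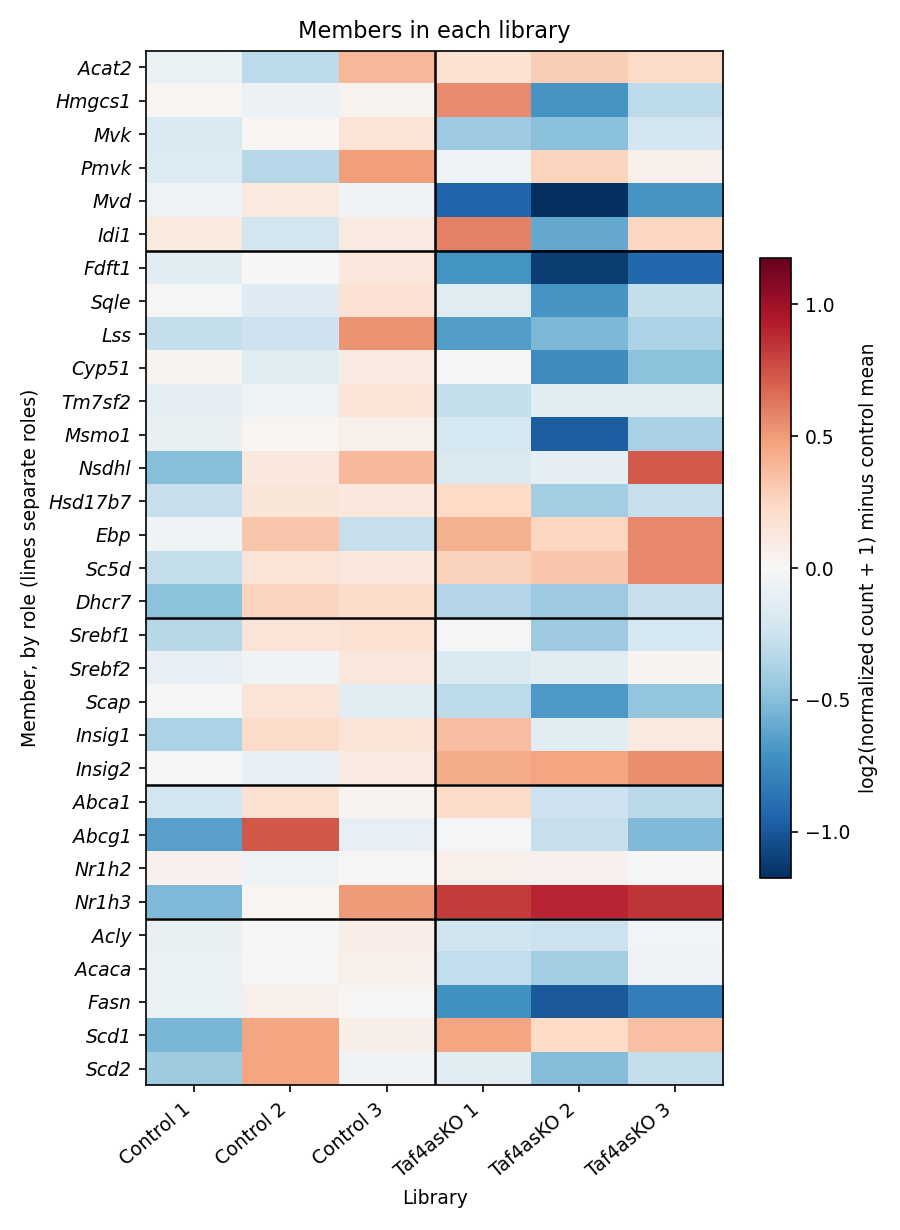
Heat map of log2(normalized count + 1) minus the control mean of the gene, for the 31 tested genes (rows, by role) in the 6 libraries (columns); red is above and blue below the control mean. Mvd, Fdft1, Scap and Fasn are blue and Insig2 and Nr1h3 red in all 3 Taf4asKO libraries, while Taf4asKO replicate 2 is the bluest library for many enzymes.

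Libraries of a group differed from each other across the enzymes. In Taf4asKO replicate 2, 14 of the 17 enzymes were below their group mean, by a median of 0.20 on the log2 scale. In control replicate 3, 15 of 17 were above it, with a median of 0.13, and in control replicate 1, 14 of 17 were below it, with a median of -0.10. Over all genes tested, these library medians lay between -0.013 and 0.032. Control replicate 1 also had the lowest sums of Schwann, endothelial and fibro-adipogenic markers among the controls.

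Among the SREBP genes, the 2 that passed were Scap and Insig2, and the transcription factor genes themselves did not. Scap, the escort of SREBPs, had 485, 547 and 450 in control and 398, 308 and 357 in Taf4asKO. Every Taf4asKO library was below every control. Scap fell by 28.4% (log2 fold change -0.48, SE 0.13, adjusted p = 0.0404), but passed in only 1 of the 6 fits that leave out 1 library, the fit without control replicate 3, and its adjusted p reached 0.180 at most over all alternatives. The antisense gene 5830462I19Rik overlaps 13.2% of its exon bases.

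Insig2, 1 of the 2 INSIG genes that retain SCAP, had 577, 544 and 628 in control and 789, 803 and 852 in Taf4asKO. The Taf4asKO libraries were close together and all above the controls. Insig2 rose by 39.8% (log2 fold change 0.48, SE 0.10, adjusted p = 0.0139), and it did not pass without Taf4asKO replicate 2 or without Taf4asKO replicate 3 (adjusted p at most 0.0826 over all alternatives). Insig1, a well known SREBP target that feeds back on the pathway, had 933, 1413 and 1344 in control and 1555, 1106 and 1312 in Taf4asKO. Its groups overlapped, with control replicate 1 the lowest library (log2 fold change 0.12, SE 0.17, adjusted p = 0.704).

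Srebf2, the SREBP most tied to cholesterol synthesis, had 3141, 3259 and 3679 in control and 2987, 3062 and 3435 in Taf4asKO. The groups overlapped, and the 95% interval of the log2 fold change (-0.09) ran from -0.31 to 0.14 (adjusted p = 0.618). Srebf1, the SREBP most tied to fatty acid synthesis, had 1061, 1478 and 1509 in control and 1324, 993 and 1155 in Taf4asKO (log2 fold change -0.21, SE 0.15, adjusted p = 0.399). Control replicate 1 lay inside the Taf4asKO range of Srebf1 and the other 2 controls above it. Per kilobase of exon, Srebf2 had a mean of 468 normalized counts in control, above Insig1 at 398, Srebf1 at 239, Insig2 at 168 and Scap at 66.4.

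Of the 4 LXR and efflux genes, 0 passed in either direction, where 6.71% of all genes were called lower and 5.93% higher. At an unadjusted p under 0.05 in limma, 0 were lower, against 14.2% of all genes, and 1 was higher, against 14.6%. Nr1h3, LXR alpha, had 38, 56 and 78 in control and 98, 103 and 99 in Taf4asKO. The controls were spread and the Taf4asKO libraries close together above them. The log2 fold change was 0.85 (SE 0.26, adjusted p = 0.0558, and 0.0248 with the replicate block, where it was called higher), and it was 0.59 without control replicate 1 and 1.10 (adjusted p = 0.0210) without control replicate 3. Nr1h2, LXR beta, had 777, 721 and 756 in control and 782, 779 and 749 in Taf4asKO (log2 fold change 0.04, 95% interval -0.17 to 0.25, adjusted p = 0.844). Per kilobase of exon, Nr1h2 was at 224 and Nr1h3 at 22.8 in control.

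Abca1 and Abcg1 are cholesterol exporters and LXR targets. Abca1, which loads cholesterol onto apolipoproteins, had 888, 1166 and 1057 in control and 1199, 868 and 829 in Taf4asKO (log2 fold change -0.11, SE 0.16, adjusted p = 0.677). Abcg1, which exports cholesterol to lipoprotein particles, had 23, 61 and 34 in control and 36, 30 and 25 in Taf4asKO (log2 fold change -0.27, SE 0.36, adjusted p = 0.671). Both genes overlapped between groups, and the interval for Abcg1, from -1.07 to 0.53, was the widest of the 31 genes.

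Among fatty acid genes, Fasn was the 1 of 5 that fell (20%, against 6.71% of all genes), and 0 rose (against 5.93%), with 0 higher also at an unadjusted p under 0.05 in limma, against 14.6%. Fasn, fatty acid synthase, had 5040, 5532 and 5371 in control and 3243, 2673 and 3019 in Taf4asKO. The groups lay far apart, at means of 5314 ± 251 and 2978 ± 287 (SD, n = 3). Fasn fell by 44.1% (log2 fold change -0.84, SE 0.10, adjusted p = 0.000935), the smallest adjusted p of the 31 genes, and passed in all 6 fits that leave out 1 library.

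The enzymes that feed Fasn differed less. Acly, which makes cytosolic acetyl-CoA from citrate, had 1288, 1377 and 1445 in control and 1165, 1152 and 1341 in Taf4asKO (log2 fold change -0.17, SE 0.10, adjusted p = 0.300). Acaca, the carboxylase that makes malonyl-CoA, had 705, 755 and 779 in control and 610, 560 and 725 in Taf4asKO (log2 fold change -0.25, SE 0.12, adjusted p = 0.201). In both genes, Taf4asKO replicate 3 lay inside the control range and the other 2 below it.

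Scd1 and Scd2, desaturases that make monounsaturated fatty acids, had opposite signs and wide spread in control. Scd1 had 2118, 4242 and 3226 in control and 4235, 3607 and 3932 in Taf4asKO (log2 fold change 0.35, SE 0.21, adjusted p = 0.293). Scd2 had 4327, 7952 and 5596 in control and 5283, 4047 and 4763 in Taf4asKO (log2 fold change -0.31, SE 0.19, adjusted p = 0.331). In both, control replicate 1 was the lowest and control replicate 2 the highest control. Without control replicate 1, the log2 fold changes were 0.08 for Scd1 and -0.51 for Scd2, and neither passed. Without control replicate 2, Scd1 passed as higher (0.58, adjusted p = 0.0448). Per kilobase of exon, Scd2 was the highest of the 32 genes in control, at 1090, ahead of Scd1 at 653 and Fasn at 485.

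Other genes of these pathways, 63 in 5 lists chosen by role, included 5 that fell (7.94%, against 6.71% of all genes) and 7 that rose (11.1%, against 5.93%), all 63 being tested. The same shares over all genes apply to the genes past the threshold in each list below. Counts at an unadjusted p under 0.05 compare with 14.2% of all genes lower and 14.6% higher. In the branches that use farnesyl diphosphate for dolichol, ubiquinone and protein prenylation, 4 of 10 genes rose and 0 fell, with 1 lower at an unadjusted p under 0.05 in limma. Nus1, a subunit of the enzyme that makes dolichol chains, had 288, 381 and 301 in control and 470, 485 and 473 in Taf4asKO (log2 fold change 0.57, adjusted p = 0.0196). Dolk, dolichol kinase, had 83, 106 and 79 in control and 157, 141 and 143 in Taf4asKO (log2 fold change 0.72, adjusted p = 0.0241). No library of either gene overlapped between groups. The other 2 were Fnta, a subunit of the prenyl transferases, at log2 fold change 0.54 (adjusted p = 0.0185), and Icmt, which methylates prenylated proteins, at 0.55 (adjusted p = 0.0160). Nus1 and Dolk each passed in 1 of the 6 fits that leave out 1 library, the fit without control replicate 2, and Fnta and Icmt passed in the 3 fits that leave out a control and in none that leave out a Taf4asKO library.

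**Figure D4:**
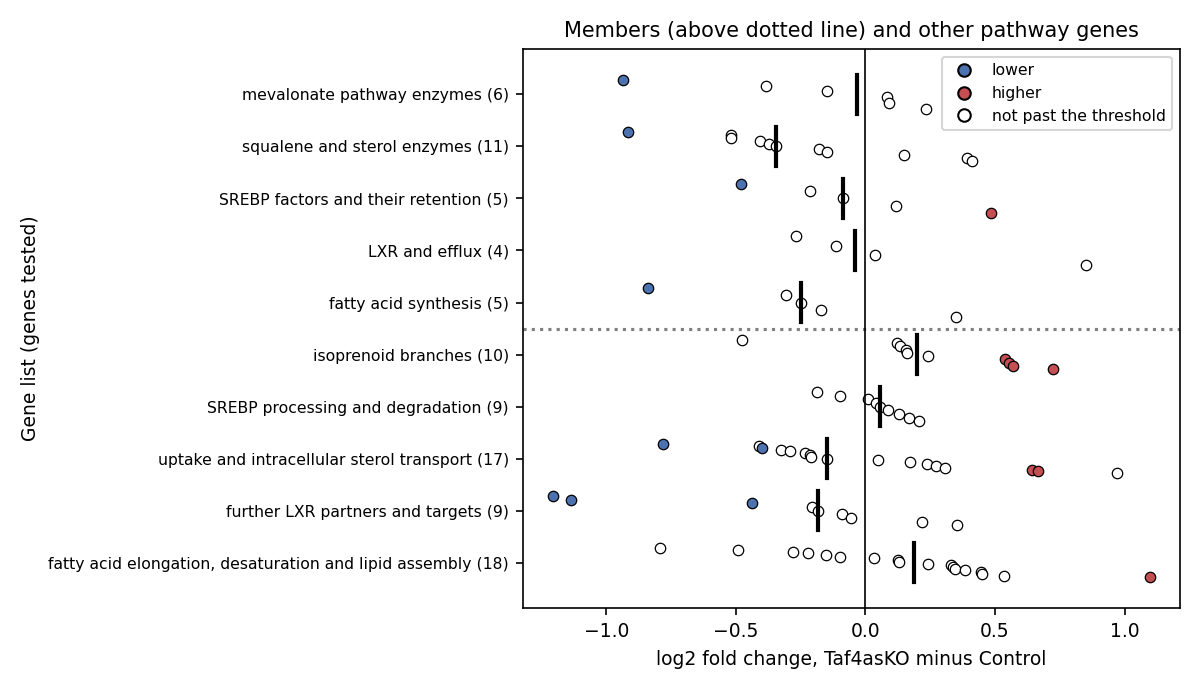
Log2 fold change, Taf4asKO minus Control (x axis), of each tested gene in the 5 lists of members (above the dotted line) and 5 lists of other pathway genes (below it); the number of genes tested is in brackets. Blue and red points passed the threshold, black bars are medians, and in the isoprenoid list 9 of 10 genes lie above 0.

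Of 17 genes for uptake and transport of sterols within the cell, 2 fell and 2 rose. Gramd1b, which carries cholesterol from the plasma membrane to the endoplasmic reticulum, had 949, 820 and 792 in control and 528, 475 and 484 in Taf4asKO (log2 fold change -0.78, SE 0.11, adjusted p = 0.00211). It passed in all 6 fits that leave out 1 library, and its relative Gramd1a passed at -0.40 (adjusted p = 0.0354). Npc2, which hands cholesterol out of lysosomes, had 354, 479 and 455 in control and 723, 633 and 677 in Taf4asKO (log2 fold change 0.67, SE 0.13, adjusted p = 0.0106). Lipa, the lysosomal lipase that frees cholesterol from its esters, had 136, 200 and 187 in control and 250, 296 and 263 in Taf4asKO (log2 fold change 0.64, SE 0.17, adjusted p = 0.0335). The groups did not overlap in any of these 3 genes. The log2 fold change of Gramd1a did not pass when libraries were rescaled to the same total (adjusted p = 0.0768). Gramd1a and Lipa each passed in 2 of the 6 fits that leave out 1 library, and Npc2 in 4, being lost without Taf4asKO replicate 1 or 3.

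Of 9 further LXR partners and targets, 3 fell and 0 rose, with 0 higher at an unadjusted p under 0.05 in limma. Arl4c, a small GTPase gene and LXR target, had 149, 171 and 165 in control and 77, 75 and 58 in Taf4asKO (log2 fold change -1.20, SE 0.18, adjusted p = 0.00267), and passed in all 6 fits that leave out 1 library. Abcg4, a sterol transporter, had 35, 47 and 48 in control and 18, 20 and 19 in Taf4asKO (log2 fold change -1.14, SE 0.27, adjusted p = 0.0224). The groups did not overlap in either gene. Abcg4 passed in 2 of the 6 fits that leave out 1 library, those without control replicate 1 or 2.

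Of 18 genes of fatty acid elongation, desaturation and lipid assembly, 1 rose and 0 fell, with 4 higher and 1 lower at an unadjusted p under 0.05 in limma. With the replicate block, 3 were higher, Elovl5 and Lpin1 being added (16.7%, against 9.09% of all genes). The block called 1 lower, Elovl6 (5.56%, against 8.98%). The gene past the threshold was Dgat2, which makes triglycerides, with 41, 48 and 46 in control and 107, 81 and 106 in Taf4asKO (log2 fold change 1.10, SE 0.21, adjusted p = 0.00810), lost only without Taf4asKO replicate 3. All its Taf4asKO libraries were well above the controls. Of 9 genes that process SREBPs or degrade their partners, 0 passed, and 0 had an unadjusted p under 0.05 in limma, in either direction.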

How the data were processed

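Total RNA of sorted MuSCs was sequenced in 6 libraries (single-end reads of 75 bases). Per the study's methods and the submitters' processing notes, the authors trimmed reads with Trimmomatic 0.39, aligned them to mm10 with STAR 2.6.0c, removed reads mapping to several places, counted exon reads with featureCounts 1.6.0 without reads over several genes, and normalized with DESeq2 1.14.1. The deposited values are a score: counts divided by a size factor and rounded by the authors to whole numbers, called normalized counts here. Raw read depth is therefore not given. Whether counting used the strand is not given in the sources used here.

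Values were taken as log2(value + 1), and genes with a mean of at least 5 were compared by two-sided limma tests (version 3.58.1, R 4.3.3, lmFit and eBayes with a trend on intensity) without covariates; p-values were adjusted over all genes tested. Fold changes on this scale understate those of low genes. The limits on mean, p and fold follow the study's methods. A count model needs raw reads and was not fitted. Groups came from the genotype labels. All 32 genes are named, as are the genes past the threshold in the other lists apart from 1 that is not reported here, Taf4, and the markers at the extremes of their lists. The members, the other lists and the tests were chosen with earlier results of these data known.

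Replicate numbers come from the titles. Across genes, the correlation of deviations from the group mean was 0.235, 0.126 and 0.15 for the 3 pairs with equal numbers. For other pairs the mean was -0.0847, so the numbers were taken to pair the libraries. Deviations within a group cancel out, so these values are not independent of each other, and no label states a pairing. Of the gene identifiers, 99.8% were in GENCODE M21 (mm10), which gave exon length and overlaps. Levels per kilobase use the union of all annotated exons. Promoters are from RefSeq. For 1 gene of the other lists, Spring1, no row was matched and it is not analysed here. The adipocyte markers Adipoq, Plin1, Retn and Lep and the leukocyte markers Ptprc, Adgre1, Itgam and C1qa are likewise not analysed here. The 18 alternatives covered scaling (total, upper quartile, trimmed mean of M values with 30% of M and 5% of A trimmed), pseudocounts of 0.1 and 5, mean filters of 20 or none, robust shrinkage, fold limits of 2 or none, an adjusted p of 0.01, the replicate block, and leaving out each library (6 fits). Figures were drawn with matplotlib 3.10.9.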

Additional observations from a re-analysis of the deposited data

How the results depend on the processing

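Rescaling to the total, to the upper quartile or by the trimmed mean of M values, pseudocounts of 0.1 and 5, mean filters of 20 or none, robust shrinkage and no fold limit left the counts of sterol and fatty acid genes at 4 lower and 1 higher. In the other pathway lists, rescaling to the same total ended 1 call, the log2 fold change of Gramd1a (adjusted p = 0.0768). The replicate block gave 7 lower and 3 higher, and 5 lower and 1 higher among synthesis enzymes; it changed no other call among the 31 genes. In the other pathway lists the block gave 7 lower (11.1%, against 8.98% of all genes) and 10 higher (15.9%, against 9.09%). Counts over all genes are not given for the stricter limits and leave-out fits that follow. A general loss or gain of calls in those fits cannot be told apart from 1 particular to these genes. With a fold limit of 2, 0 of the 31 genes were lower and 0 higher, 0 synthesis enzymes were lower, and the other lists held 2 lower genes and 1 higher gene. At the stricter adjusted p of 0.01, 2 of the 31 were lower (Fdft1 and Fasn) and 0 higher, 1 synthesis enzyme was lower, and 2 genes of the other lists were lower and 1 higher. Leaving out each library gave 2 to 4 lower and 0 to 3 higher of the 31, 1 to 3 lower and 0 to 1 higher synthesis enzymes, and 2 to 7 lower and 0 to 9 higher in the other lists. Without Taf4asKO replicate 2, 2 of the 31 were lower and 0 higher; without control replicate 2, 3 were lower and 3 higher; without control replicate 3, 4 were lower and 2 higher; without Taf4asKO replicate 3, 3 were lower and 0 higher. Without Taf4asKO replicates 1, 2 and 3 in turn, the other lists had 1, 2 and 0 higher genes. The sign turned in at least 1 of these fits for 6 genes that never passed: log2 fold changes ranged from -0.14 to 0.34 for Nsdhl, -0.071 to 0.24 for Insig1, -0.077 to 0.34 for Pmvk, -0.18 to 0.42 for Idi1, -0.59 to 0.10 for Abcg1 and -0.50 to 0.12 for Hmgcs1. The cause was not tested. With 3 libraries per group, raw depth unknown and rounding to whole numbers, small changes of genes with few counts, such as Fdps and Abcg1, were not detectable.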
